A study of Rattus norvegicus with 18 samples.

Results

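The chaperones of the endoplasmic reticulum (ER) and the genes of its stress response were followed through 9 cell populations of the rat testis. The genes were Canx, Calr, Herpud1, Sdf2l1, Hsp90b1, Hspa5, Chac1, Ddit3, Atf4 and Xbp1, and every probe set annotated to them was taken, which gave 12 of the 31042 counted probe sets and 10 of the 13807 genes read, all on array type A. Each population had 1 array of each of 2 types, and the animals were 22 days old, with the strain not given in the labels. The germ cell populations were cells that bound to laminin, cells that did not bind, cells kept for 20 days on MSC1 feeders, and cells kept for 1, 5, 10 or 20 days on STO feeders. MSC1 is a mouse Sertoli cell line and STO a mouse embryonic fibroblast line. The somatic populations were the somatic cells of the tubules and the interstitial cells between them. For the binding and non-binding cells the labels give no length of culture, and for the feeder cultures no step that separates off feeder RNA. Because each population has 1 library, a fold between 2 of them carries no replicate error and no p-value.

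Proteins that enter the secretory pathway fold inside the ER. Hspa5 (BiP) and Hsp90b1 (Grp94) hold unfolded chains, while Canx and Calr, the calnexin and calreticulin lectins, retain glycoproteins until they have folded. When unfolded chains build up, the sensors IRE1, PERK and ATF6 start the unfolded protein response. IRE1 splices the Xbp1 transcript, ATF6 and XBP1 raise the genes of chaperones and of ER-associated degradation, and PERK favours translation of Atf4, which acts upstream of Ddit3 (CHOP) and Chac1. In the testis, meiotic and later germ cells make many glycoproteins of the acrosome and cell surface.

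The summed signal of 9 meiotic markers was 24831 in non-binding cells and 16857 on STO day 20, against 2923 in binding cells and 3100 to 4466 in the other feeder libraries. It was 400.1 in the tubular and 1120 in the interstitial fraction. The summed signal of 16 matrix markers was 11726 in the tubular and 34191 in the interstitial fraction, and in the germ cell libraries it was lowest in binding cells (1778) and highest on MSC1 (8290). The Gapdh control gave 3'/5' signal ratios, high where RNA is short, of 7.07 in binding and 5.63 in non-binding cells. The same ratio was 27.4 on MSC1, 20.7, 20.6, 29.7 and 14.7 on STO days 1, 5, 10 and 20, 11.2 in the tubular and 7.94 in the interstitial fraction. The beta-actin control ordered the libraries otherwise, with 21.6 in binding and 8.91 in non-binding cells, 25.8 on MSC1, 71.2, 26.8, 94.3 and 37.0 on STO days 1, 5, 10 and 20, 67.3 in the tubular and 41.2 in the interstitial fraction (type A). The 100 probe sets that both array types hold gave a standard deviation of 0.25 for a log2 fold on 1 type, averaged over all pairs of libraries. A difference of 1.40-fold, or 2 standard deviations, is used below as the spread between arrays. Single pairs of libraries gave standard deviations of 0.15 to 0.32, so for folds near 1.40 the limit is approximate. This spread covers the arrays only, and not the animals, cultures or amplification.

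The start regions of the genes were searched for the response elements through which the pathway is known to act, and each stretch with a match is printed here. The windows were the RefSeq sequences from 250 bases before to 50 after each gene start (GRCr8), found for 10 of 10 genes, and both strands were searched. The ER stress response element ERSE was written as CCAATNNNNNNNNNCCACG, in which NF-Y is known to bind the left end and ATF6 or XBP1 the right end. It was found in 5 of the 10 windows, against 0.0657% of all 33469 windows. ERSE-II, written ATTGGNCCACG, was found in 1 of the 10, that of Herpud1, and in 0.0508% of all windows. Its left end is the reverse complement of the left end of ERSE, and both share the right end. The ATF4 and C/EBP composite element CARE, written TGATGNAA, was found in Chac1 and Herpud1 and in 3.98% of all windows. The XBP1 element UPRE, written TGACGTGG, was found in none of the 10 and in 0.595% of all. Capitals below mark the fixed letters of the match, and a match on the other strand appears as its reverse complement.
Hspa5 ERSE (chr3:38452953-38453011, plus strand): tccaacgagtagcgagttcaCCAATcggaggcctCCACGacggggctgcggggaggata
Hsp90b1 distal ERSE (chr7:23012431-23012489, minus strand): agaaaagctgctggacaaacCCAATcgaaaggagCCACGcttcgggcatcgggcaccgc
Hsp90b1 proximal ERSE (chr7:23012327-23012385, minus strand): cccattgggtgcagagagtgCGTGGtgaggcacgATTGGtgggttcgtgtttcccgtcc
Canx ERSE (chr10:35158049-35158107, minus strand): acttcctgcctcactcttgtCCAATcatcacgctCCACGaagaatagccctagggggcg
Calr ERSE (chr19:40213117-40213173, plus strand): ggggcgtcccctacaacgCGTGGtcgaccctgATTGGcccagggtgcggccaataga
Xbp1 ERSE (chr14:84604538-84604596, plus strand): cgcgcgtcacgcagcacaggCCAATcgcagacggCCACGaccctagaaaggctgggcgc
Herpud1 ERSE-II (chr19:10614801-10614851, minus strand): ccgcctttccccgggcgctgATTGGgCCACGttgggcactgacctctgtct
Herpud1 CARE (chr19:10614864-10614911, minus strand): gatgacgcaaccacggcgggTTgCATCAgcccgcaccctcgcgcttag
Chac1 CARE (chr3:126795944-126795991, plus strand): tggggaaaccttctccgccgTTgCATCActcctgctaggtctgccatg
These stretches lie before the start used in the RefSeq table. Both Herpud1 stretches lie inside the annotated Herpud1 gene, 9257 and 9317 bases from its outermost start, so they may not be promoter sequence for every Herpud1 transcript, and whether they are exonic or intronic was not analysed here. The other stretches lie outside the annotated span of their gene. The windows of Sdf2l1, Ddit3 and Atf4 held none of the 4 motifs. Of 112 windows of the other pathway genes, ERSE was found in 4 (Creld2, Derl3, Dnajc3 and Ero1b), ERSE-II in 2 (Dnajb11 and Hyou1), UPRE in 6 and CARE in 5.

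The lectin chaperone gene Canx (gene 29144, chromosome 10, 35124941 to 35157954) differed widely between libraries. It had 3 probe sets, numbered here in the order of their identifiers. By probe set 1 its signal was 318 in laminin-binding and 2729 in non-binding cells. The same probe set read 641 on MSC1, and 465, 432, 933 and 3107 on STO days 1, 5, 10 and 20. The somatic fractions read 1725 in the tubular and 2142 in the interstitial cells. The libraries fell into a low set of binding, STO day 1, STO day 5 and MSC1 cells, whose neighbours differed by less than the array spread, and a high set of both somatic fractions, non-binding and STO day 20 cells, with STO day 10 between them. Probe set 3 also had binding cells lowest, at 171, and put all other libraries between 479 and 1249.7. Its reading on STO day 20 was 980.3, against 673 on day 1, so the large day 20 signal of the first probe set was not shared in size. Probe set 2 was dim throughout, between 51.9 on MSC1 and 309 in binding cells, and ran the other way between the laminin fractions. The 3 Canx probe sets therefore do not read the same pattern, with a Pearson r over the 9 libraries of 0.79 between probe sets 1 and 3 and 0.14 between 1 and 2.

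Calr (gene 64202, chromosome 19, 40213367 to 40218262), the soluble partner of Canx, varied far less. Its signal was 491 in binding and 680.2 in non-binding cells, 673 on MSC1 and 332, 468, 562 and 987 on STO days 1, 5, 10 and 20. It was 879.5 in the tubular and 568 in the interstitial fraction. STO day 1 lay below the next library by more than the array spread, and no other neighbours in the order were that far apart.

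Hspa5 (gene 25617, chromosome 3, 38453016 to 38457475), the Hsp70 of the ER and the keeper of the stress sensors, had a signal of 2599 in binding and 4963 in non-binding cells. On feeders it read 1315 on MSC1, and 2008, 1311, 2389 and 4290 on STO days 1, 5, 10 and 20. The tubular fraction had 5242 and the interstitial fraction 1530. Tubular, non-binding and STO day 20 cells formed a high group that stood above all others by more than the array spread. Hsp90b1 (gene 362862, chromosome 7, 22997962 to 23012293), the Hsp90 of the ER, read 735.5 in binding and 1840.4 in non-binding cells. It read 485 on MSC1, and 796, 506, 528 and 1942 on STO days 1, 5, 10 and 20. Unlike Hspa5 it was low in the tubular fraction, at 602, and higher in the interstitial one, at 1315. The high group of Hsp90b1 was interstitial, non-binding and STO day 20 cells.

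Sdf2l1 (gene 680945, chromosome 11, 97376878 to 97379120), a luminal protein that works with Hspa5, had its highest signal in non-binding cells, at 3019, against 826 in binding cells. It read 408 on MSC1, and 367, 475, 568 and 1498 on STO days 1, 5, 10 and 20. The somatic fractions could not be told apart, with 662.2 in the tubular and 662.3 in the interstitial one. Non-binding cells and STO day 20 cells were the only 2 libraries set off from their lower neighbour by more than the array spread. Herpud1 (gene 85430, chromosome 19, 10604360 to 10624168), a membrane protein of ER-associated degradation, had the widest range of the 12 probe sets, at least 24.6-fold. Its signal was 104 in binding and 517 in non-binding cells, 80.1 on MSC1, and 35.4, 20.0, 171 and 280.0 on STO days 1, 5, 10 and 20. It was 139.8 in the tubular and 1231 in the interstitial fraction. The readings on STO days 1 and 5 were under the floor of 50, below which signals were not ordered.

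Xbp1 (gene 289754, chromosome 14, 84604623 to 84609707), the transcription factor made active by splicing, read 188 in binding and 408 in non-binding cells. It read 403 on MSC1, and 501, 487, 595 and 1155 on STO days 1, 5, 10 and 20. The tubular fraction had 1453 and the interstitial fraction 1297. STO day 20 and both somatic fractions stood above the rest, and binding cells stood below all others, each by more than the array spread. The arrays give the total transcript and not the spliced form. Atf4 (gene 79255, chromosome 7, 113684681 to 113686739), which is controlled largely in translation, had one of the narrowest ranges, 3.09-fold. Its signal was 421 in binding and 660.0 in non-binding cells, 375.5 on MSC1, and 344, 247, 406 and 322 on STO days 1, 5, 10 and 20. The tubular and interstitial fractions had 750.4 and 762.

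Ddit3 (gene 29467, chromosome 7, 65001695 to 65006517), which encodes the stress factor CHOP, was highest in non-binding cells, at 676, against 272 in binding cells. It read 378 on MSC1, and 131, 236, 198 and 198.5 on STO days 1, 5, 10 and 20, with 259 in the tubular and 149 in the interstitial fraction. Only non-binding cells stood apart from their neighbour in the order. Chac1 (gene 362196, chromosome 3, 126796131 to 126799352) encodes an enzyme that breaks down glutathione. Its extremes lay in the same libraries as those of Canx by probe set 1, with highest and lowest exchanged. The Chac1 signal was 1008 in binding and 647 in non-binding cells, 650.4 on MSC1, and 515, 615, 485.5 and 174 on STO days 1, 5, 10 and 20. It was 366 in the tubular and 306 in the interstitial fraction. Binding cells were highest and STO day 20 lowest, each separated from its neighbour by more than the array spread.

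**Figure D1:**
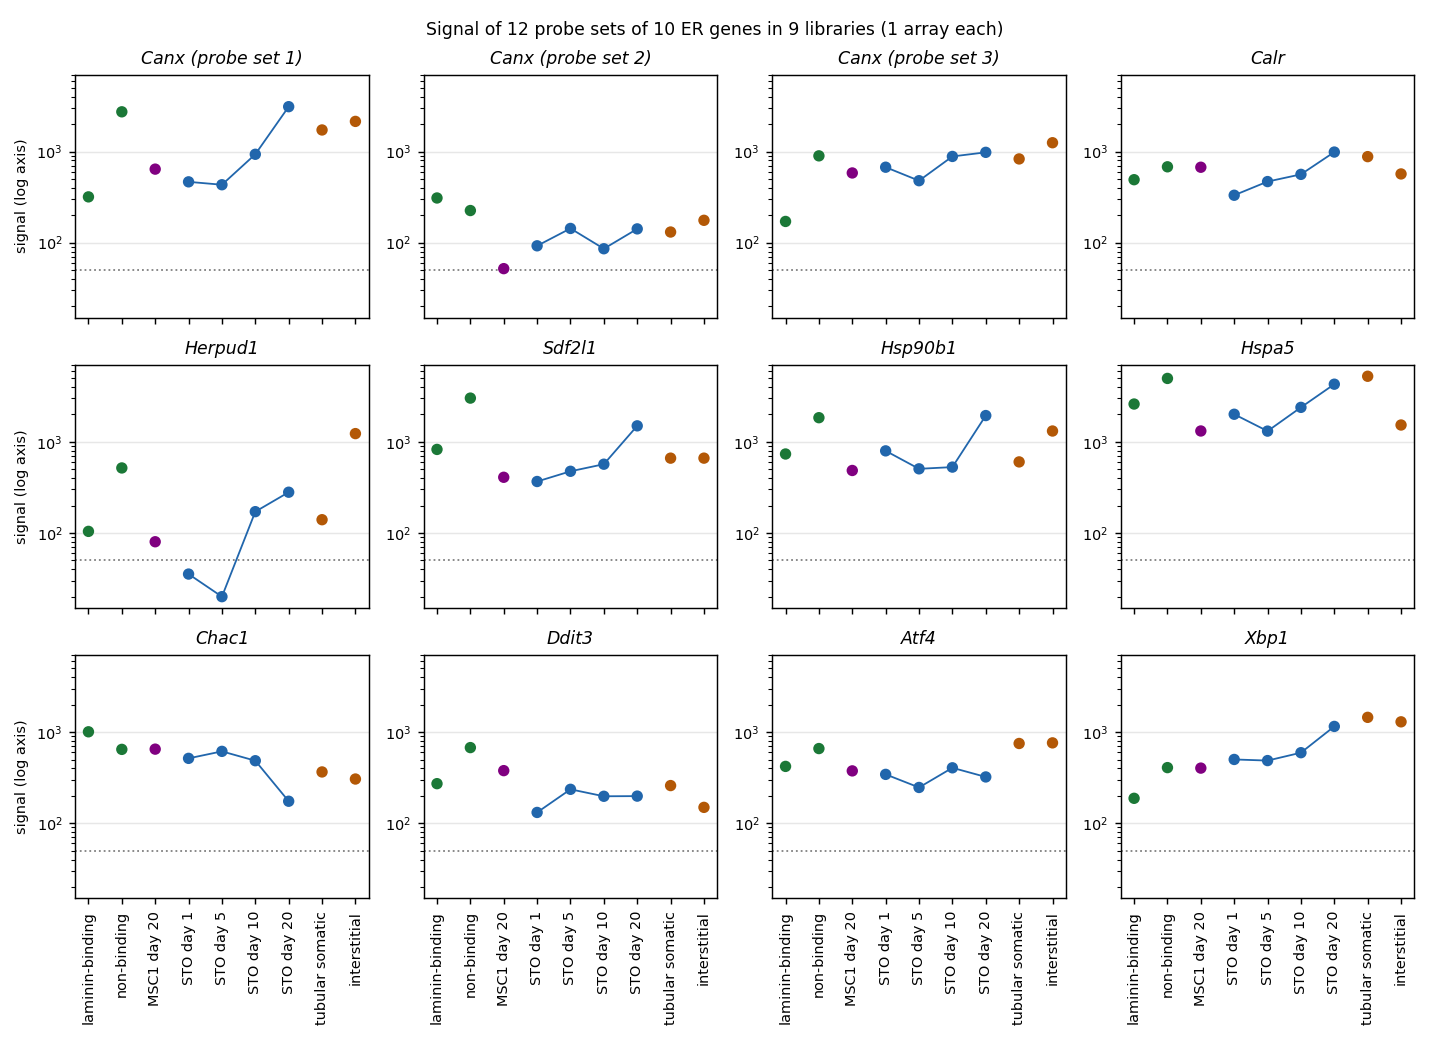
Signal (log axis) of the 12 probe sets in the 9 libraries, 1 array per point, with the STO days joined by a line and the floor of 50 dotted. Sdf2l1 and Hsp90b1 peak in non-binding and STO day 20 cells, while Chac1 is highest in binding cells (1008) and lowest on STO day 20 (174).

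Non-binding cells ranked among the 2 highest libraries for 7 of the 12 probe sets, against 23.4% of the 7457 type A probe sets with a signal of 250 or more in some library. STO day 20 did so for 5 of 12, against 23.5%. STO day 5 ranked among the 2 lowest for 7 of 12, against 14.8%. Canx by probe set 1, Sdf2l1 and Hsp90b1 had both non-binding and STO day 20 cells as their 2 highest libraries, which was true of 8.65% of all these probe sets.

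In laminin-binding against non-binding cells Canx by probe sets 1 and 3, Herpud1 and Sdf2l1 were called lower. With a call set at a fold of at least 3 and a brighter side of at least 250, 4 of 12 probe sets were lower and none was higher. Of all probe sets 7.47% were called, 3.82% lower and 3.65% higher. Each of the 12 reached 250 in some library, but only 7457 of the 15866 counted type A probe sets did, and a dimmer probe set cannot be called. Here and in the comparisons below, the shares over all probe sets are therefore lower than those among probe sets as bright as the members. The lower ones were Canx by probe sets 1 (8.58-fold) and 3 (5.25-fold), Herpud1 (4.97-fold) and Sdf2l1 (3.66-fold). Under the threshold but beyond the array spread, Hsp90b1 was 2.50-fold, Ddit3 2.49-fold, Xbp1 2.17-fold, Hspa5 1.91-fold and Atf4 1.57-fold lower in binding cells, and Chac1 was 1.56-fold higher. Calr, 1.39-fold lower, and Canx by probe set 2, 1.37-fold higher, were within that spread. The median log2 fold of the 12 was -1.22, against 0.00 for all probe sets. That 0.00 is held in place by probe sets under the floor in both libraries, whose log2 fold is 0 by definition. Over the 10977 genes with a signal over the floor in at least 1 of the 2 libraries, each by its brightest probe set, the median was 0.21. Beside this, 7 of 9 meiotic markers were called lower in binding cells, and Spo11 read 14.5 there against 2417 in non-binding cells, while the matrix sums were 1778 and 2133. Of 11 markers of undifferentiated spermatogonia 5 were called higher in binding cells, with sums of 6368 and 3727, of which Epcam made up 2153 and 2617. The sums of 10 Sertoli cell markers were 1865 and 1096, with Cldn11 called 4.07-fold higher by its brightest probe set. With the probe sets of a gene averaged, 2 spermatogonial markers and 0 Sertoli cell markers were called higher, and 7 meiotic markers were still lower. The part of these markers in the chaperone difference was not tested, and a bulk signal cannot tell fewer cells of a type from less RNA per cell.

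During culture on STO feeders Canx by probe sets 1 and 3, Calr, Hspa5, Hsp90b1, Sdf2l1 and Herpud1 were each highest on day 20. Hspa5, Hsp90b1 and Canx by probe set 3 were lower on day 5 than on day 1 by more than 1.40-fold. On day 20 against day 1, 3 of 12 probe sets were called higher and none lower, with 4.64% of all probe sets called, 2.0% higher and 2.64% lower. Canx by probe set 1 was 6.68-fold higher, Sdf2l1 was 4.08-fold higher, and for Herpud1, under the floor on day 1, the fold was at least 5.60. The Herpud1 call rests on the floor: with a floor of 100 its log2 fold was 1.49 and it was not called. Calr, at 2.98-fold higher, and Chac1, at 2.95-fold lower, lay just under the threshold. Hsp90b1 was 2.44-fold, Xbp1 2.30-fold and Hspa5 2.14-fold higher, and Atf4 differed by 1.07-fold. The median log2 fold was 1.15, against 0.00 for all probe sets, with those under the floor counted as 0, and -0.11 for the 10867 genes over the floor.

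For some members much of the difference lay after day 10. On STO day 20 against day 10, 2 of 12 probe sets were called higher, Hsp90b1 at 3.68-fold and Canx by probe set 1 at 3.33-fold. None was lower, and of all probe sets 2.49% were called, 1.22% higher and 1.27% lower. Sdf2l1 was 2.64-fold higher and Chac1 2.78-fold lower over the same step, and Ddit3 differed by 1.004-fold. Herpud1 was already over the floor on day 10, at 171, and rose 1.63-fold from there, and Calr rose 1.76-fold. Markers of several cell types moved with the day 20 library. The meiotic sum was 3910, 3100, 3485 and 16857 on days 1, 5, 10 and 20, and 6 of 7 measured meiotic markers were called higher on day 20 than on day 1. Ldhc and Crisp2, markers of later germ cells, were under the floor on day 20, at 24.7 and 1.2. Of 11 markers of undifferentiated spermatogonia 5 were called lower on day 20 than on day 1, with sums of 5197, 3910, 2488 and 2899 on days 1, 5, 10 and 20. Epcam, which rose, made up 768, 704, 771 and 2002 of these sums, and so most of that on day 20. The matrix sum was 5389, 2498, 3515 and 7575, the Leydig cell sum 467, 485, 399 and 938, and the macrophage sum 926, 966, 786 and 1419. Called higher on day 20 than on day 1 were 4 of 14 matrix markers, with 1 lower, 2 of 5 Leydig cell markers and 2 of 9 macrophage markers. With the probe sets of a gene averaged, 3 matrix, 1 Leydig cell and 2 macrophage markers were called higher, and 4 spermatogonial markers were called lower. Day 20 had the lowest Gapdh ratio of the feeder libraries, while its beta-actin ratio was above those of STO day 5 and MSC1. The part of these in the chaperone signals was not tested.

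A straight line on log2 culture day was fitted to the 4 STO libraries by limma for the 16066 probe sets whose mean signal reached 100. No probe set of the whole array passed an adjusted p of 0.05 (0% called), and 1500 had an unadjusted p under 0.05. All 12 member probe sets met the signal minimum, 0 passed and 4 had an unadjusted p under 0.05, namely Herpud1, Canx by probe set 1, Sdf2l1 and Calr. Their slopes were 0.59 ± 0.17, 0.57 ± 0.18, 0.41 ± 0.14 and 0.33 ± 0.11 per doubling of time (log2, SE, 4 libraries), each with a limma adjusted p between 0.43 and 0.45. The slope was positive for 11 of 12, with Chac1 at -0.29 ± 0.16. Without the day 1 library, with 3 libraries and 1 residual degree of freedom, limma called 1733 of 16009 probe sets, 850 rising and 883 falling. Of the 12 member probe sets it called 6. These were Canx by probe set 1, Herpud1, Sdf2l1, Hsp90b1 and Hspa5, which rose, and Chac1, which fell by 0.91 per doubling. Without the day 20 library none of the 11 members tested passed, and the slopes were 0.24 for Canx by probe set 1, -0.0020 for Chac1 and, with the sign turned, -0.20 for Hsp90b1. Without day 5 and without day 10 no member passed.

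The comparison of laminin-binding with non-binding cells and that of STO day 20 with day 1 share no library. Canx by probe set 1, Herpud1 and Sdf2l1 were called in both, lower in binding cells and higher on day 20, which is 3 of the 4 and 3 of the 3 called. Over the whole array 257 probe sets were called so in both, 21.7% of the 1186 lower in binding cells and 41.4% of the 621 higher on day 20. The folds had opposite signs for 10 of the 12 probe sets, and for 69.4% of the 11806 probe sets with a signal of at least 250 in 1 of the 4 libraries.

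On day 20 the MSC1 library had lower chaperone signals than the STO library and a higher Chac1 signal. Of the 12 probe sets 5 were called lower and 1 higher, and of all probe sets 5.17% were called, 2.34% lower and 2.83% higher. Lower on MSC1 were Canx by probe set 1 (4.85-fold), Hsp90b1 (4.005-fold), Sdf2l1 (3.67-fold), Herpud1 (3.50-fold) and Hspa5 (3.26-fold), and Chac1 was 3.73-fold higher. With a floor of 100 the log2 fold of Herpud1 was -1.49 and it was not called. Xbp1 was 2.87-fold and Calr 1.47-fold lower, Ddit3 was 1.90-fold higher, and Atf4, at 1.17-fold, was within the array spread. The median log2 fold was -1.48, against 0.00 for all probe sets, with those under the floor counted as 0, and 0.23 for the 11237 genes over the floor. The meiotic sum was 4466 on MSC1 and 16857 on STO, the matrix sum 8290 and 7575, and the Gapdh ratio 27.4 and 14.7. The beta-actin ratio ran the other way, at 25.8 on MSC1 and 37.0 on STO. Markers of undifferentiated spermatogonia had sums of 5263 on MSC1 and 2899 on STO, with 5 of 11 called higher and 1 lower. The lower marker was Epcam, which made up 636 and 2002 of these sums. The Sertoli cell sums were 1966 and 890.1, with Cldn11 called 11.1-fold higher by its brightest probe set, the macrophage sums 2504 and 1419, and the Leydig cell sums 638 and 938. With the probe sets of a gene averaged, 4 spermatogonial markers were called higher and 1 lower, and 0 Sertoli cell markers were called. The part of these in the chaperone difference was not tested. The STO day 20 library is shared with the culture comparisons above, so the 3 are not independent.

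**Figure D2:**
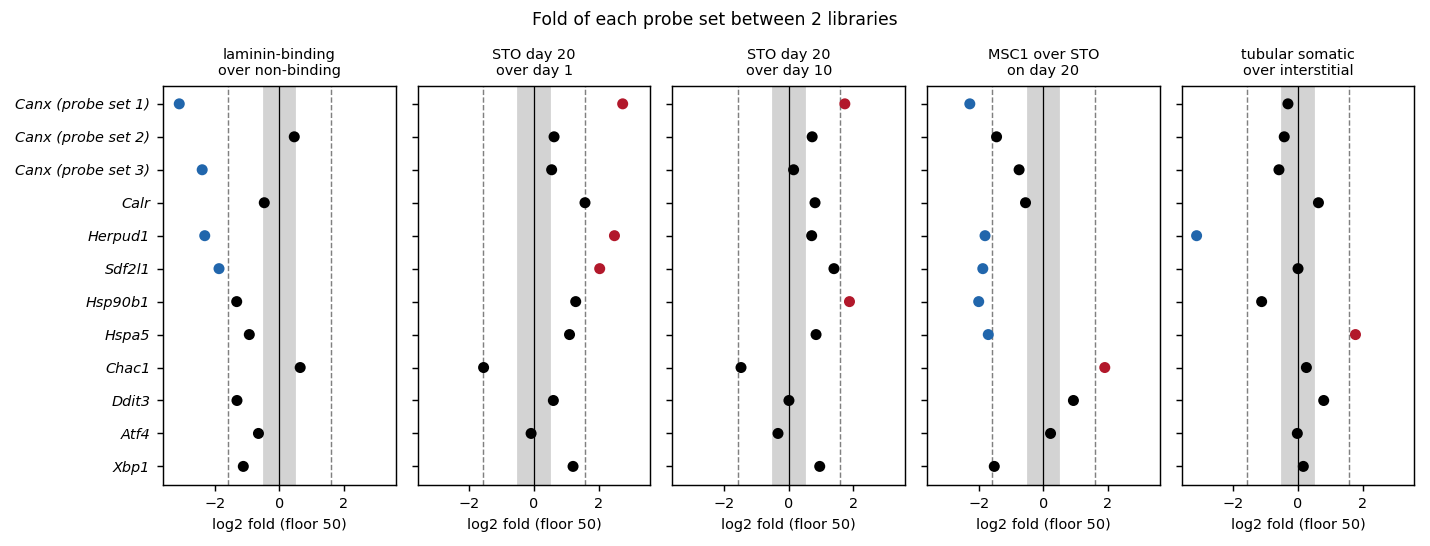
Log2 fold of each probe set in 5 comparisons of 2 libraries, with the array spread of 2 standard deviations in grey, the 3-fold lines dashed, called higher in red, called lower in blue and not called in black. Canx by its first probe set, Herpud1 and Sdf2l1 are called lower in binding cells and on MSC1 and higher on STO day 20, while Chac1 lies on the other side in all 3.

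**Figure D3:**
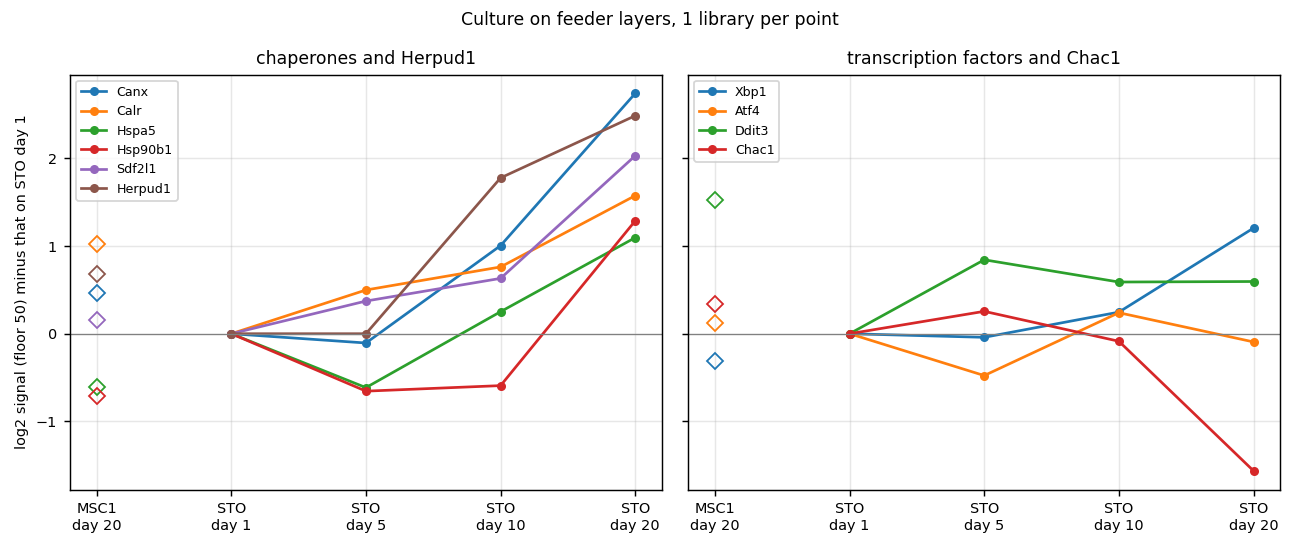
Log2 signal of each gene, by its brightest probe set and with a floor of 50, minus that on STO day 1, for MSC1 day 20 (open diamonds) and the 4 STO days (filled, joined). Hsp90b1 and Hspa5 dip on day 5 and are highest on day 20, Chac1 is lowest on day 20, and no MSC1 chaperone value reaches the STO day 20 value of its gene.

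Tubular somatic cells differed from interstitial cells in single members and not as a group. Hspa5 was called 3.43-fold higher in the tubular fraction and Herpud1 8.81-fold lower, 1 of 12 in each direction, with 5.71% of all probe sets called, 2.54% higher and 3.17% lower. Hsp90b1 was 2.18-fold lower there, Ddit3 1.73-fold and Calr 1.55-fold higher. Sdf2l1, Atf4 and Xbp1 differed by 1.0001-fold, 1.02-fold and 1.12-fold, within the array spread. The median log2 fold was -0.01. Markers of other cells differed between these fractions as well. In tubular against interstitial cells the matrix sum was 11726 against 34191, the sum of 8 Leydig cell markers 1041 against 8650.2, and that of 12 macrophage markers 784 against 5407. The sum of 10 Sertoli cell markers ran the other way, at 13637.5 against 7403, with 4 of 8 measured markers called higher. With the probe sets of a gene averaged, 2 Sertoli cell markers were called higher. The part of all these markers in the Hspa5 and Herpud1 differences was not tested.

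Germ cell libraries were set against somatic libraries by limma, with 7 and 2 libraries and the spread between different populations as the error. None of the 12 probe sets passed an adjusted p of 0.05, and 2 had an unadjusted p under 0.05, both lower in germ cells. Of 17080 probe sets 19.4% passed, 10% higher and 9.34% lower, and 5712 had an unadjusted p under 0.05. The 2 were Xbp1, at -1.54 ± 0.52 (log2, SE, limma adjusted p = 0.0513), and Atf4, at -0.99 ± 0.38 (limma adjusted p = 0.0868). The germ libraries had Xbp1 signals of 188 to 1155 with a median of 487, against 1453 and 1297 in the tubular and interstitial fractions. Their Atf4 signals were 247 to 660.0 with a median of 375.5, against 750.4 and 762. The groups did not overlap for these 2 of 12 probe sets, and they did not overlap for 29.4% of the 17080, with germ below somatic for 12.9%. The alternatives gave Xbp1 an adjusted p between 0.0151 and 0.243 and Atf4 one between 0.0271 and 0.293 (limma). Xbp1 passed without the STO day 20 library and without the binding library, and Atf4 passed without the non-binding library. Canx by probe set 1 was at -1.17 ± 0.76, Herpud1 at -1.71 ± 0.90 and Hspa5 at -0.24 ± 0.55, each overlapping between the groups.

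**Figure D4:**
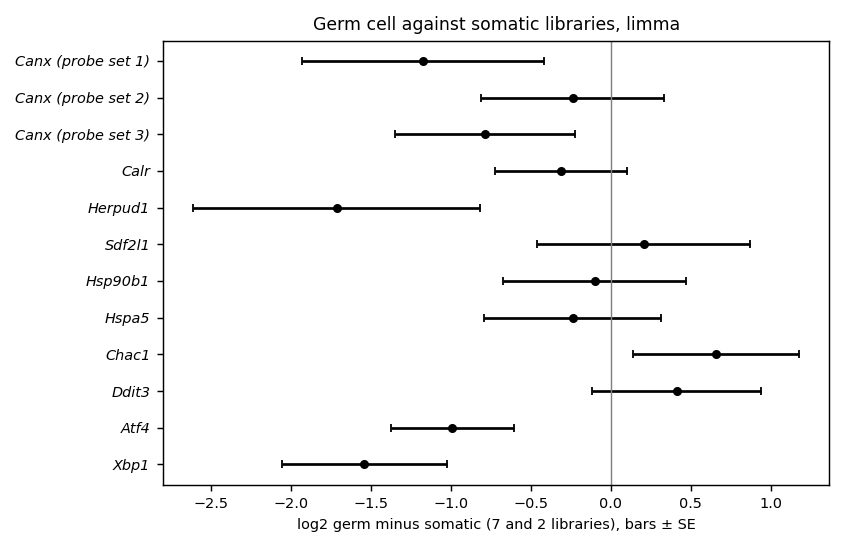
Log2 difference of germ minus somatic libraries (7 and 2) for each probe set by limma, with bars of 1 SE. Xbp1 (-1.54) and Atf4 (-0.99) lie farthest from 0 relative to their error, and no probe set passes an adjusted p of 0.05.

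Other genes of the pathway were read from 117 genes on the arrays, each by its brightest probe set. In laminin-binding against non-binding cells 11 of 108 measured genes were lower and 1 higher, with 6.5% and 5.69% of all 10977 measured genes. The lower ones were spread over the steps of the pathway. Of 14 chaperone genes they were Sil1, a nucleotide exchange factor of Hspa5 (4.33-fold), Dnajc1 (3.75-fold) and Dnajb11 (3.34-fold), both partners of Hspa5. Of 22 genes of the translocon and signal peptidase they were Sec63 (12.2-fold), which brings Hspa5 to the translocon, Ssr1 (5.18-fold) and Spcs3 (4.54-fold). Of 19 genes of ER-associated degradation they were Ngly1, which strips glycans from misfolded proteins (7.59-fold), and Man1b1 (3.12-fold). The oxidoreductase gene Txndc12 was 4.84-fold lower, 1 of 18 in oxidative folding. Among 21 targets of the ATF4 branch Aars1 (7.80-fold) and Asns (3.18-fold) were lower, and Atf3 was 3.08-fold higher. None of 13 sensor and factor genes was called. With the probe sets of a gene averaged, Sec63 (2.13-fold) and Dnajc1 (1.69-fold) were no longer called, and Man1b1 (log2 fold 0.09) turned its direction. The median log2 fold was -0.76 for the chaperone list and 0.28 for the ATF4 target list, against 0.21 for all genes.

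On STO day 20 against day 1, 6 of 107 pathway genes were higher and 2 lower, with 2.57% and 4.5% of all genes. Higher were Sil1 (6.74-fold), Sec63 (6.59-fold), Ngly1 (5.74-fold), and 3 genes of oxidative folding, Ero1b (4.06-fold), Erp44 (3.78-fold) and Ero1a (3.46-fold). Lower were Phgdh (7.73-fold) and Psat1 (5.46-fold), enzymes of serine synthesis and targets of ATF4. With the probe sets of a gene averaged, Sec63 (2.53-fold), Ero1b (2.02-fold), Erp44 (2.21-fold) and Ero1a (2.28-fold) were no longer called. By its brightest probe set Sec63 had signals of 378, 357, 533 and 2491 on days 1, 5, 10 and 20, and Phgdh 1011, 429, 614 and 131. Sec63 was thus high on day 20 alone, whereas Phgdh was already lower on day 5 than on day 1. From day 10 to day 20, 2 of 108 pathway genes were higher (Sec63 and Sil1) and 2 lower (Phgdh and Psat1), with 1.5% and 2.04% of all genes. Averaged over its probe sets Sec63 was 2.51-fold higher over this step and not called.

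On MSC1 against STO on day 20, 7 of 111 pathway genes were lower and 2 higher, with 3.16% and 4.15% of all genes. Ngly1 (7.65-fold), Ssr1 (5.50-fold), Sec63 (4.77-fold), Sil1 (4.19-fold), the degradation lectin gene Erlec1 (3.54-fold), Tmx1 (3.08-fold) and Ssr3 (3.05-fold) were lower. The translocon subunit gene Sec61g (3.20-fold) and Psat1 (3.12-fold) were higher. With probe sets averaged, Sec63 (2.25-fold), Erlec1 (2.64-fold) and Ssr3 (1.32-fold) were no longer called. In tubular against interstitial cells 2 of 108 were higher and 3 lower, with 4.02% and 4.96% of all genes. Atf3 (5.75-fold) and the membrane-bound factor gene Creb3 (3.48-fold) were higher, and the cystine carrier gene Slc7a11 (5.61-fold), Fkbp7 (4.16-fold) and Dad1 (3.16-fold) were lower.

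In germ against somatic libraries 6 of 100 tested pathway genes rose and 9 fell by limma at an adjusted p of 0.05, in 7 and 2 libraries. Over all 17080 probe sets tested 10% rose and 9.34% fell. Those include several probe sets per gene and unnamed ones. A share by the brightest probe set of each gene was not counted for this fit, so the comparison is approximate. Those higher in germ cells included the chaperone gene Creld2, at 1.86 ± 0.43 (log2, SE, limma adjusted p = 0.0095), with signals of 688 to 2158 against 300.2 in the tubular and 238 in the interstitial fraction. Cebpg, a partner of ATF4 in binding DNA, was at 1.80 ± 0.35 (limma adjusted p = 0.0032) and the oxidase gene Ero1b at 2.12 ± 0.54 (limma adjusted p = 0.015). Txndc5, an oxidoreductase of the ER lumen, fell by 2.89 ± 0.45 (limma adjusted p = 0.00093), with 142 to 364 in germ cell libraries against 1259 and 2606 in the tubular and interstitial fractions. Slc7a11 was at -2.59 ± 0.52 (limma adjusted p = 0.0048) and Creb3 at -2.41 ± 0.44 (limma adjusted p = 0.0025). No list moved one way: 3 of 17 genes of oxidative folding rose and 3 fell, 1 of 14 chaperone genes rose and 2 fell, and none of 22 translocon genes passed.

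Likeness between patterns was measured as Pearson's r of log2 signal over the 9 libraries, which share arrays and scaling, and is given as a description. Among the members, Canx by probe set 1 went with Herpud1 (r = 0.80), Calr (0.74), Hsp90b1 (0.73), Xbp1 (0.71), Sdf2l1 (0.67) and Hspa5 (0.60), and against Chac1 (-0.73). Between Chac1 and the other chaperones r was -0.17 for Sdf2l1, -0.29 for Hspa5, -0.50 for Hsp90b1 and -0.56 for Calr. Chac1 ran most opposite to Xbp1, with r = -0.89 over 9 libraries and -0.95 over the 7 germ cell libraries. Xbp1 and Sdf2l1 were near 0.02. Among 4911 type A probe sets with a range of at least 3-fold, counting members, the genes most like Canx were Slain2 (r = 0.98), Rnf149 (0.98) and Rab28 (0.98). Those most like Sdf2l1 were Ift20 (0.96), a gene of transport into cilia and flagella, Gtf2h1 (0.94) and Lrrc46 (0.93). Those most like Hspa5 were Numb (0.96), Dnajc7 (0.94) and Clcn3 (0.91), and those most like Hsp90b1 were Parpbp (0.95), Ipp (0.94) and Apeg3 (0.94). Herpud1 was most like Cggbp1 (0.93), Scrn3 (0.92) and Bet1 (0.92). Xbp1 was most like Clic4 (0.97), Efr3a (0.96) and Crk (0.94), and Atf4 most like Lypla1 (0.97), Tmem242 (0.95) and Tm2d1 (0.95). Ddit3 was most like Msrb2 (0.91), Mkrn1 (0.90) and Pam16 (0.88). Chac1 was most like Drosha (0.95), the amino acid carrier gene Slc7a3 (0.91) and Bcas2 (0.91). Slc7a3 had a signal of 310.2 in binding and 217 in non-binding cells, 138 on MSC1, and 153, 153, 121 and 44.2 on STO days 1, 5, 10 and 20. The tubular fraction had 43.4 and the interstitial fraction 66.7. Like Chac1, Slc7a3 was thus highest in binding cells. Unlike Chac1, it was under the floor on STO day 20 and in the tubular fraction.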

How the data were processed

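Linear intensities were deposited, and per the labels the authors brought each array to an average signal of 250. The RNA (50 ng) went through 2 rounds of amplification. For software and background treatment, the sources used here name none; detection calls (Tau 0.015, per the labels) are not analysed here. Type A has 15923 and type B 15333 probe sets; 57 controls per type were left out and 100 on both types were counted once, leaving 31042. Names came from the platform annotation, with symbols updated by gene identifier: on types A and B, 12789 and 7570 probe sets had 1 gene, 312 and 100 had several and were left unnamed, and 2822 and 7663 were unnamed. Signals were raised to a floor of 50 and taken to log2. A single-library comparison was called at 3-fold with a brighter side of at least 250. Pathway genes were read from the probe set with the highest mean log2 signal, type A preferred. Linear models were fitted with limma 3.58.1 in R 4.3.3 (lmFit and eBayes with a variance trend), on each array type alone, and Benjamini-Hochberg adjustment ran over the 2 types together. The limma code was tested on simulated data. The number of arrays limits the precision. The rule for named genes took all members, up to 6 called genes per list, and the 3 genes most like each member with a range of at least 3-fold. The members, lists and tests were chosen with earlier results of these data known. Alternatives changed the floor (25 or 100), scaling, fold, filter, variance model, libraries and probe set. Python 3.11.15 was used for the rest.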

Additional observations from a re-analysis of the deposited data

How the results depend on the processing

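Under the 2 other scalings 118 of 120 member folds moved by less than 1 array standard deviation. None of the folds that were called turned its direction, and the direction of uncalled folds was not counted. A floor of 25 or 100 can move only signals below 100 and moved 4 folds by more, 3 of Herpud1 and 1 of Canx by probe set 2; at 100 Herpud1 lost its calls on STO day 20 against day 1 and on MSC1 against STO. A call at 2-fold raised the number of member probe sets called to 7 in laminin-binding against non-binding cells, 8 on STO day 20 against day 1 and 4 against day 10. The share of all probe sets called at 2-fold was not counted, so these numbers cannot be set against the whole array. With all probe sets of a gene averaged, 4 other pathway genes in place of 8 were called on STO day 20 against day 1, 9 in place of 12 between the laminin fractions, 6 in place of 9 on MSC1 against STO and 3 in place of 4 on day 20 against day 10. Leaving out 1 library in turn gave 0 to 6 member probe sets and 0 to 1733 of all probe sets past the threshold in the STO trend, and 0 to 1 and 1421 to 4059 in germ against somatic libraries, whose lowest counts, 1421 and 1619, came without the interstitial and without the tubular library, where the lone somatic library is assumed to vary like the germ cell libraries. In that fit Xbp1 passed after scaling to a common 75th percentile and with a mean signal of at least 200, which gave 1 member in each case. No paired analysis was possible because each group has 1 library. Signals near the floor, such as those of Herpud1 and of Canx by probe set 2, are the least sure, and a 1-library difference cannot separate the population from its culture, RNA or amplification.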
